A study of Mus musculus with 8 samples.

Results

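The oocyte transcription factors examined here are 9 genes that control the growth and identity of the mammalian egg: Figla, Nobox, Sohlh1, Sohlh2, Lhx8, Pou5f1, Taf4b, Foxo3 and Sall4. They were read through every probe set that the platform annotation assigns to exactly 1 of these genes, which gave 14 of the 45101 probe sets on the array, for 9 of the 18194 genes named by a probe set with a single symbol. The samples are total RNA of mouse oocytes at the germinal vesicle (GV) stage, the immature oocyte whose nucleus is intact. In 4 of them the GV oocytes had spent 48 h of culture in milrinone, and the other 4 were untreated GV oocytes. Milrinone blocks the phosphodiesterase that breaks down cAMP in the oocyte and so holds oocytes in meiotic arrest. The labels describe no sample cultured without the drug, so effects of milrinone, of culture and of time cannot be told apart, and they give no strain, genotype or age. Each array received 15 µg of labelled cRNA, so a level is relative to the other RNA of its sample, and fewer cells of a type and less RNA per cell cannot be told apart. The labels do not say whether the replicates are separate animals or pools, so the p-values reflect only how far these samples scatter, and that scatter may be technical.

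Of these factors, Sohlh1, Sohlh2, Lhx8, Figla and Nobox are treated here as a chain that acts as follicles form and begin to grow. The basic helix-loop-helix proteins Sohlh1 and Sohlh2 and the LIM homeodomain protein Lhx8 are needed in mouse for the survival of primordial follicles, and ovaries that lack them fail to express other oocyte genes, Nobox and Figla among them. Figla, a basic helix-loop-helix protein that pairs with E-proteins, is needed in mouse for primordial follicles to form and for transcription of the zona pellucida genes, and the homeodomain protein Nobox is needed for early follicle growth and for Gdf9, Bmp15 and Pou5f1. Foxo3, a forkhead factor held in check by the PI3K and Akt pathway, keeps primordial follicles dormant. Taf4b is a subunit of a form of the general transcription factor TFIID that is enriched in gonads, and Pou5f1 (Oct4) and Sall4 are regulators of pluripotent and germ cells that the oocyte also makes.

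Basic helix-loop-helix dimers bind DNA at the E-box, CANNTG, so the bases before the start sites of the members show where such letters lie in the genes whose levels follow. Windows of 250 bases before an annotated start site came from RefSeq (GRCm38.p6) for 7 of the 9 genes. E-box letters, which are read alike on both strands, were in 66.2% of all 32851 windows of this length. The 4 sequences are those of Sohlh1, the member with the most matches and the only one never listed on an array, Nobox and Figla, genes of the chain, and Foxo3, the member with the largest difference. Each is given 5′ to 3′ on the strand of the gene with the E-box letters in capitals.

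Sohlh1 (chr2:25847249-25847498, minus strand): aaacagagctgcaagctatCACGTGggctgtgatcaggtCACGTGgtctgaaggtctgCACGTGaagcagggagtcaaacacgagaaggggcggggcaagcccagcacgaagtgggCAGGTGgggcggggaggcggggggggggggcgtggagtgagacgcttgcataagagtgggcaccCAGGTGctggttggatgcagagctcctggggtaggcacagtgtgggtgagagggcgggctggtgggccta

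Nobox (chr6:43309555-43309804, minus strand): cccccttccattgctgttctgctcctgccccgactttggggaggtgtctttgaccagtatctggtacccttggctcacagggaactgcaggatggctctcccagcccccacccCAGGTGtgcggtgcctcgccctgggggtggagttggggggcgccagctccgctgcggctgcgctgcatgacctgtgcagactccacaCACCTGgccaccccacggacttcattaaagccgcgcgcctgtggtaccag

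Figla (chr6:86016941-86017190, plus strand): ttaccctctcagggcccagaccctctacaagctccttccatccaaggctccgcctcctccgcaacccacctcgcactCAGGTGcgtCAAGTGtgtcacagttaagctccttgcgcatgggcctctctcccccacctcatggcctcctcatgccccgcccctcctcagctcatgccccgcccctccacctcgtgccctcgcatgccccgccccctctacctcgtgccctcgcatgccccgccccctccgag

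Foxo3 (chr10:42276696-42276945, minus strand): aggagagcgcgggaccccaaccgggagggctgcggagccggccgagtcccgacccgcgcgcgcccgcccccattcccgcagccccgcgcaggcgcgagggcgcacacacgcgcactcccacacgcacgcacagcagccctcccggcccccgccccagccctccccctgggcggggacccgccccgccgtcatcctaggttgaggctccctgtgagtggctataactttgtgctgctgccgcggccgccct

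The Sohlh1 window held 5 E-box matches, 3 of them with the letters CACGTG, whereas 1.15% of all windows held 5 or more matches and 0.0609% held CACGTG at least 3 times. The letters CACGTG and both counts were taken from this window, so these shares describe it and are not a test. Nobox and Figla held 2 matches each, and 31.8% of all windows held 2 or more. The Foxo3 window held none, like 33.8% of all windows, and 76.4% of its bases were G or C, against a median of 52.4% over all windows. The Lhx8 window also held none, that of Sohlh2 held 1, and the 2 windows of Pou5f1 held 1 and 2. The windows of Nobox and Figla and the Pou5f1 window with 2 matches lie inside the annotated span of their gene. They precede a start site within that span and not its outer end. The element reported for Nobox binding was searched on both strands as TAATTG and as its reported variants, of which the first is TAGTTG. The other variant, which reads alike on both strands, is TAATTA. At least 1 of these 3 strings occurred in 16.1% of all windows, and none of the 3 in the members' windows. ATGCAAAT, the octamer of POU factors, occurred in 1.60% of all windows and GTAAACA, a forkhead motif, in 3.17%, and neither occurred in a window of the members. None of these motifs overlapped another in the members' windows. A match is a string of letters and not a measured site, and a missing match says only that these letters are not in this window.

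**Figure D1:**
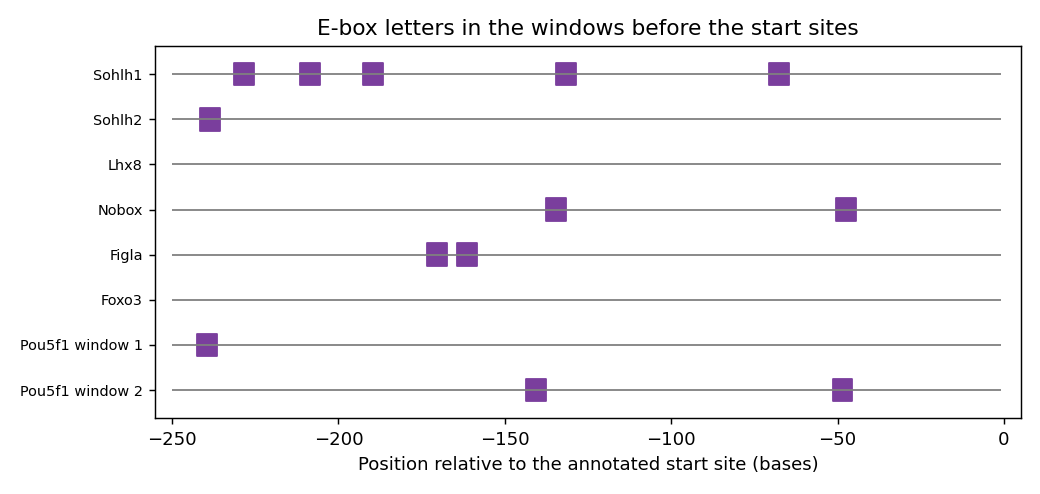
Positions of E-box letters (CANNTG, purple blocks) in the windows before the annotated start sites of 7 oocyte transcription factor genes, with the distance from the start site in bases on the x axis and 1 row per window. Sohlh1 has 5 blocks, and Lhx8 and Foxo3 have none.

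The values are the intensities as deposited, on a linear scale, with empty cells where no value was given. Here listed means that an array gave a value for a probe set, and an empty cell sets no upper limit. Between 56.9% and 58.7% of the cells of a milrinone array and between 48.4% and 58.1% of those of an untreated array were empty. The median listed value was 386 to 414 on milrinone arrays and 284 to 389 on untreated arrays. Levels of different probe sets are not set against each other, because brightness also depends on the probes. All 16 probe sets of 12 oocyte markers were listed on all 8 arrays, with summed intensities of 136704 to 145438 on milrinone arrays and 131433 to 157478 on untreated arrays. Markers of granulosa, cumulus and theca cells, the somatic cells of the follicle, were listed at 11 to 19 of 48 probe sets on milrinone arrays and at 26 to 38 on untreated arrays. Their summed intensity was 2861 to 4005 on milrinone arrays and 22689 to 99820 on untreated arrays (exact permutation p = 0.0286, the smallest that 4 against 4 arrays allow). Empty cells add nothing to the somatic sums here and below, which thus cover fewer probe sets on milrinone arrays. Of the 23 such genes with a probe set, 7 were empty on all milrinone arrays and 1 on all untreated arrays, Amh on both. The markers of blood, stroma and endothelium were listed at 4 to 5 of 23 probe sets on milrinone arrays, with sums of 624 to 784, and at 10 to 15 on untreated arrays, with sums of 1481 to 10270 (exact permutation p = 0.0286), and 8 of their 14 genes were empty on all milrinone arrays and 1 on all untreated arrays. Untreated 1 stood apart: its median correlation with the other arrays was 0.930, against 0.966 to 0.980 for the other 7, and it had the highest sum in both somatic lists.

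Messages of 8 of the 9 factors were listed on all 8 arrays, in milrinone and untreated oocytes alike, through 12 of the 14 probe sets. No member passed the test for a difference between the groups. Of the 12 tested probe sets 0 had an adjusted p under 0.05 in limma's moderated test, in which 0.117% of the 16288 tested probe sets passed, all lower in milrinone, and 0.00% were called higher. Among those that passed were 4 of the 11 tested probe sets of granulosa, cumulus and theca markers, of Gja1 and Grem1. The brightest probe set of each differed by -4.91 for Gja1 and -4.67 for Grem1 (limma adjusted p = 0.0109 and 0.00482). No oocyte, blood, stromal or endothelial marker passed. Limma without a trend in the variance also called 0 of the 12. At an unadjusted p under 0.05, 2 of the 12 differed, both probe sets of Foxo3 and both higher in milrinone, where 9.63% of all tested probe sets differed and 5.62% were higher. The median log2 difference, milrinone minus untreated on the log2(intensity + 16) scale, was 0.16 over the 12 probe sets and 0.06 over all tested probe sets, and 10 of the 12 lay above 0, as did 62.0% of all. With arrays scaled by quantile normalization 6 of the 12 lay above 0 and the median over the 16288 moved to -0.13, and with arrays centred on ribosomal protein genes 11 lay above 0 and it moved to 0.25. Without untreated 1, 9 of the 12 lay above 0 and 0 passed.

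**Figure D2:**
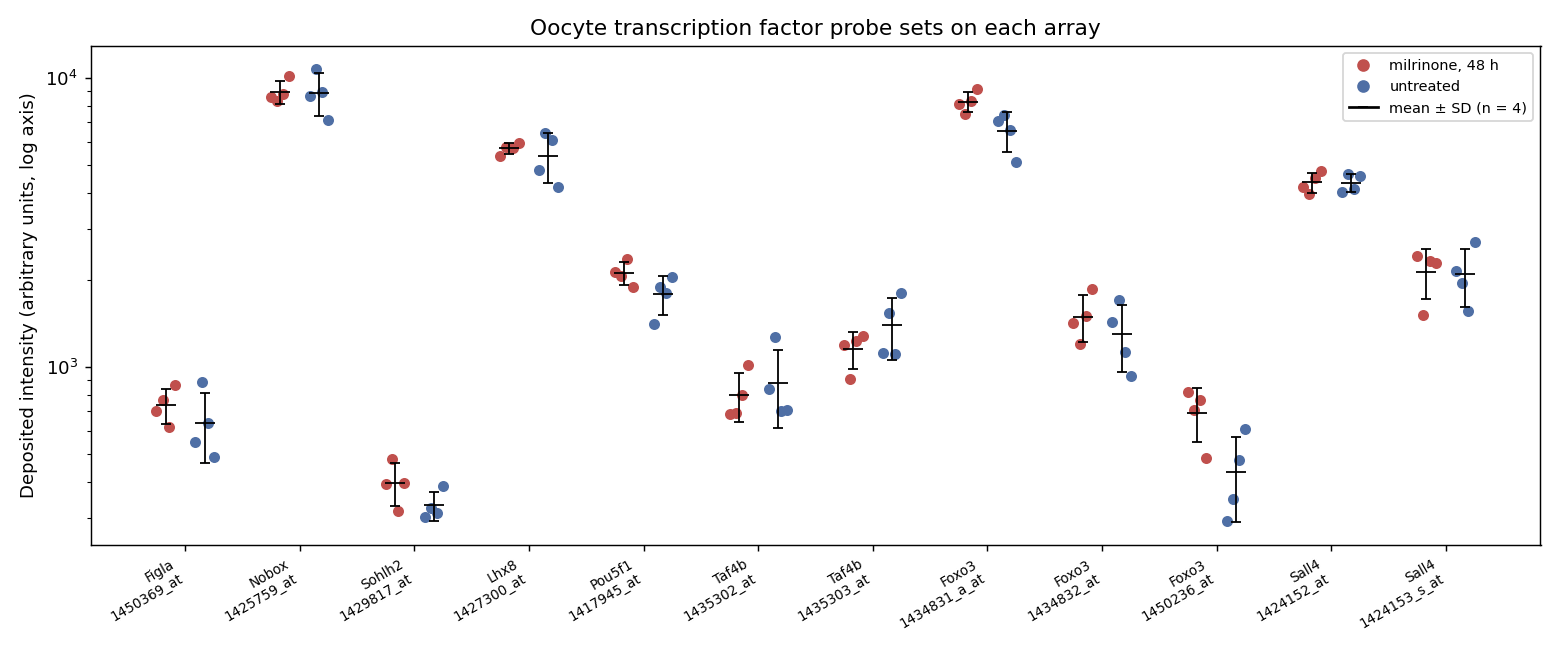
Deposited intensity (arbitrary units, log axis) of the 12 probe sets listed on all arrays, 1 point per array, milrinone in red and untreated in blue, with bars for the mean ± SD of 4 arrays. The 4 milrinone arrays lie above all untreated arrays for 1 probe set, Foxo3 1434831_a_at, and the groups overlap for the other 11.

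The factors at the head of the chain were seen unequally. Sohlh1 was read by 1 probe set, 1460015_at, which was empty on all 8 arrays, so nothing can be said of its level in either group. Sohlh2, its partner, was listed on all arrays. Probe set 1429817_at had 392, 480, 318 and 395 on milrinone 1 to 4, and 301, 325, 312 and 387 on untreated 1 to 4. Milrinone 1, 2 and 4 lay above every untreated array, untreated 4 was the highest of its group, and milrinone 3 lay among the untreated arrays. The mean was 396 ± 66.4 in milrinone and 331 ± 38.6 in untreated oocytes (SD, n = 4 each), a log2 difference of 0.24 (SE 0.16, 95% interval -0.12 to 0.60, limma adjusted p = 0.612).

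Lhx8, which acts beside them in the early follicle, had 5368, 5771, 5690 and 5935 on milrinone 1 to 4, and 4772, 6439, 6062 and 4182 on untreated 1 to 4 (1427300_at). The milrinone arrays lay close together, inside the wider range of the untreated arrays, of which 2 were higher than any milrinone array and 2 lower. The coefficient of variation was 4.19% in milrinone and 19.8% in untreated oocytes. The log2 difference was 0.11 (SE 0.13, 95% interval -0.18 to 0.39, limma adjusted p = 0.781), and it was -0.0061 without untreated 4.

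Figla, which turns on the zona pellucida genes, was read by 1450369_at. It had 704, 764, 616 and 862 on milrinone 1 to 4, and 548, 882, 639 and 485 on untreated 1 to 4. All milrinone values lay within the untreated range, whose ends were untreated 4 and untreated 2. Means were 737 ± 103 in milrinone and 639 ± 174 in untreated oocytes (SD, n = 4 each), a log2 difference of 0.23 (SE 0.20, 95% interval -0.21 to 0.66, limma adjusted p = 0.681).

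Nobox, the homeodomain factor of the growing oocyte, had 8539, 8302, 8750 and 10103 on milrinone 1 to 4, and 8626, 10739, 8909 and 7109 on untreated 1 to 4 (1425759_at). The milrinone values again lay inside the untreated range, with untreated 2 highest and untreated 4 lowest of all. The means of 8923 ± 807 in milrinone and 8846 ± 1489 in untreated oocytes (SD, n = 4 each) gave a log2 difference of 0.024 (SE 0.12, 95% interval -0.24 to 0.28, limma adjusted p = 0.951). On the fold scale that interval runs from 0.849 to 1.22.

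Pou5f1, the POU-domain pluripotency factor that Nobox is known to act on, was read by 1417945_at. It had 2133, 2061, 2358 and 1890 on milrinone 1 to 4, and 1408, 1888, 1796 and 2048 on untreated 1 to 4. Milrinone 1, 2 and 3 lay above every untreated array, milrinone 4 lay among them, and untreated 1 was the lowest of all. The log2 difference was 0.25 (SE 0.14, 95% interval -0.05 to 0.55, limma adjusted p = 0.558), and it was 0.14 without untreated 1.

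Sall4, a zinc finger protein known to work with Oct4 in embryonic stem cells, had the narrowest interval of the 12. Its probe set 1424152_at had 4168, 3968, 4492 and 4748 on milrinone 1 to 4, and 4015, 4627, 4102 and 4568 on untreated 1 to 4, and the groups lay over each other. Means were 4344 ± 345 and 4328 ± 314 in milrinone and untreated oocytes (SD, n = 4 each), a log2 difference of 0.0048 (SE 0.092, limma adjusted p = 0.986), with an interval of 0.871 to 1.16 on the fold scale. The other probe set, 1424153_s_at, whose suffix marks probes that can match more than 1 transcript, was more scattered. It had 2423, 1510, 2316 and 2277 on milrinone 1 to 4, and 2148, 1939, 1559 and 2698 on untreated 1 to 4, with milrinone 2 the lowest of all and untreated 4 the highest. Its log2 difference was 0.035 (SE 0.19, 95% interval -0.40 to 0.46, limma adjusted p = 0.957).

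Taf4b, the TFIID subunit, was the one member whose tested probe sets both lay below 0, although neither passed, and 1435302_at lay above 0 with arrays centred on ribosomal protein genes and without untreated 2. It had 684, 688, 795 and 1012 on milrinone 1 to 4, and 837, 1263, 705 and 710 on untreated 1 to 4, a log2 difference of -0.12 (SE 0.21, 95% interval -0.58 to 0.35, limma adjusted p = 0.854). Untreated 2 was the highest of all 8, and the other untreated arrays lay within the milrinone range. Probe set 1435303_at had 1186, 905, 1227 and 1277 on milrinone 1 to 4, and 1115, 1537, 1110 and 1804 on untreated 1 to 4, a log2 difference of -0.25 (SE 0.19, 95% interval -0.67 to 0.16, limma adjusted p = 0.633). Untreated 2 and 4 were the highest here. Another probe set, 1431193_at, was listed on 2 of 4 untreated arrays, at 25.5 on untreated 2 and 23.4 on untreated 3, and on 0 of 4 milrinone arrays. It was not tested.

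Foxo3, the forkhead factor that keeps primordial follicles dormant, had the 2 highest differences among the 12 tested probe sets. Of its 3 probe sets, 1450236_at ordered the arrays unlike the other 2. Probe set 1434831_a_at, whose suffix marks probes shared by transcripts of 1 gene, had 8126, 7484, 8284 and 9138 on milrinone 1 to 4, and 7060, 7440, 6606 and 5090 on untreated 1 to 4. All 4 milrinone arrays lay above all 4 untreated arrays, by a small margin between milrinone 2 and untreated 2, and untreated 4 was far the lowest. This was 1 of the 12 tested probe sets with groups that did not overlap and milrinone higher, where 5.06% of all tested probe sets had this order, and 0 of the 12 had milrinone lower without overlap, where 2.74% of all did. The means were 8258 ± 681 in milrinone and 6549 ± 1031 in untreated oocytes (SD, n = 4 each). The log2 difference was 0.34 (SE 0.12, 95% interval 0.08 to 0.61), or 1.27-fold, and did not pass (limma unadjusted p = 0.0144, adjusted p = 0.469, over a range of 0.178 to 0.781 in 18 other settings).

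Probe set 1450236_at of Foxo3 had 820, 706, 766 and 484 on milrinone 1 to 4, and 293, 348, 474 and 608 on untreated 1 to 4. Milrinone 1, 2 and 3 lay above every untreated array and milrinone 4 lay inside the untreated range. The means were 694 ± 147 in milrinone and 431 ± 141 in untreated oocytes (SD, n = 4 each). Its log2 difference of 0.69 (SE 0.24, 95% interval 0.15 to 1.24), or 1.62-fold, was the largest among the members and did not pass either (limma unadjusted p = 0.0169, adjusted p = 0.472). It was 0.53 without untreated 1 and 0.87 without untreated 4. The remaining probe set, 1434832_at, had 1413, 1198, 1493 and 1856 on milrinone 1 to 4, and 1424, 1702, 1119 and 931 on untreated 1 to 4. The groups overlapped in part, with milrinone 4 above every untreated array and untreated 3 and 4 below every milrinone array. The log2 difference of 1434832_at was 0.22 (SE 0.20, 95% interval -0.23 to 0.67, limma adjusted p = 0.697). A further probe set, 1444226_at, carries the symbols of Gm38485 and Foxo3 and was not counted as a member. It was empty on all milrinone arrays and listed on untreated 1 and 2 at 101 and 130.

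**Figure D3:**
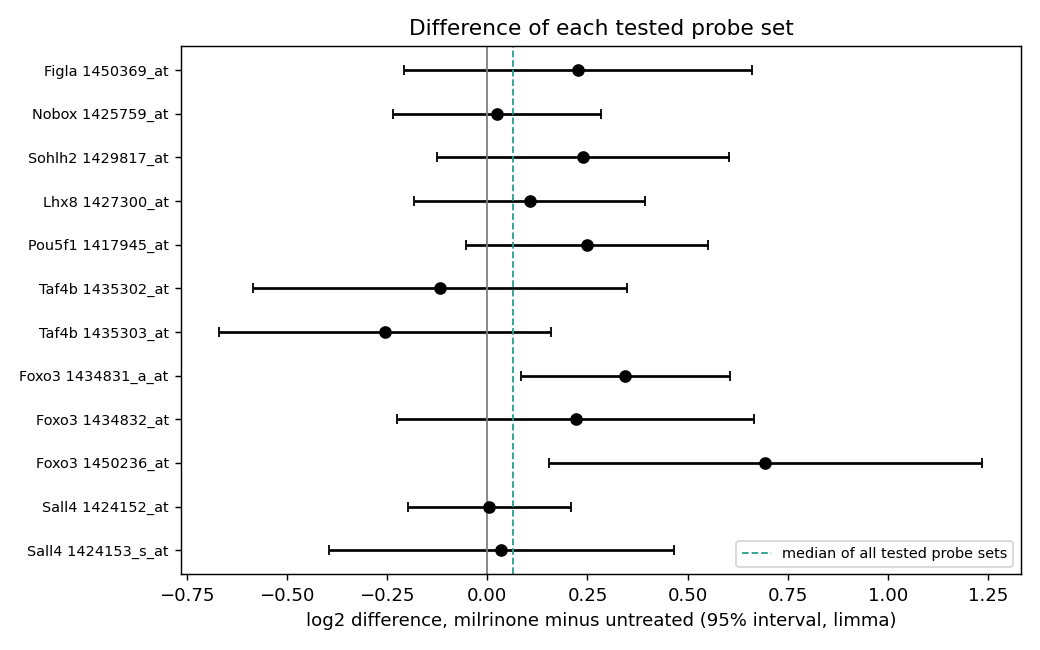
Log2 difference, milrinone minus untreated on the log2(intensity + 16) scale, of the 12 tested probe sets with 95% intervals from limma. The intervals of Foxo3 1434831_a_at and 1450236_at lie above 0, the other 10 include 0, and the dashed line marks the median of all tested probe sets at 0.06.

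For some arrays, 1450236_at of Foxo3 gave the opposite order to the other 2 probe sets. Milrinone 4 was the lowest milrinone array for 1450236_at and the highest for the other 2 probe sets, and untreated 4 was the highest untreated array for 1450236_at and the lowest for the other 2. Within each array, the log2 ratio of 1450236_at to 1434831_a_at was -3.28, -3.38, -3.41 and -4.19 on milrinone 1 to 4, and -4.52, -4.36, -3.76 and -3.03 on untreated 1 to 4. That ratio, in which the scaling of an array nearly cancels, thus spread over more than the difference between its means of -3.57 ± 0.42 in milrinone and -3.92 ± 0.67 in untreated oocytes (SD, n = 4 each; exact permutation p = 0.400). In all, 5 pairs of probe sets of 1 gene were compared in this way, after the values had been seen: 3 of Foxo3 and 1 each of Taf4b and Sall4. The differences between the groups ran from -0.12 to 0.47, and the smallest p was 0.314 (exact permutation, two-sided, adjusted p = 0.667 over the 5 pairs). The ratio of the 2 tested probe sets of Taf4b was -1.33 on untreated 4, beyond the range of -0.78 to -0.28 on the other 7 arrays.

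Spread among the untreated arrays was wider than among the milrinone arrays for 10 of the 12 probe sets, by the coefficient of variation. Over all tested probe sets this held for 75.5%. The exceptions were Sohlh2, with 16.8% in milrinone and 11.7% in untreated oocytes, and Sall4 1424152_at, with 7.95% and 7.25% in milrinone and untreated oocytes. Untreated 2 and 4 set most of the ends. Untreated 2 was the highest untreated array for 7 of the 12 probe sets, and 29.8% of the 14391 probe sets listed on all 8 arrays had it highest. For 5 of those 7, namely Figla, Nobox, Lhx8 and 2 probe sets of Foxo3, untreated 4 was also the lowest, an order shared by 13.02% of all probe sets listed on all 8 arrays. For Sohlh2, Pou5f1 and Foxo3 1450236_at, untreated 1 was the lowest and untreated 4 the highest of the untreated arrays, as for 20.2% of all. Untreated 1 was the lowest untreated array for 4 of the 12 probe sets, and for 46.2% of all probe sets listed on all 8 arrays. The marker sums of granulosa, cumulus and theca cells were 99820, 22689, 25269 and 25029 on untreated 1 to 4. The part of those cells in the members' levels was not tested.

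**Figure D4:**
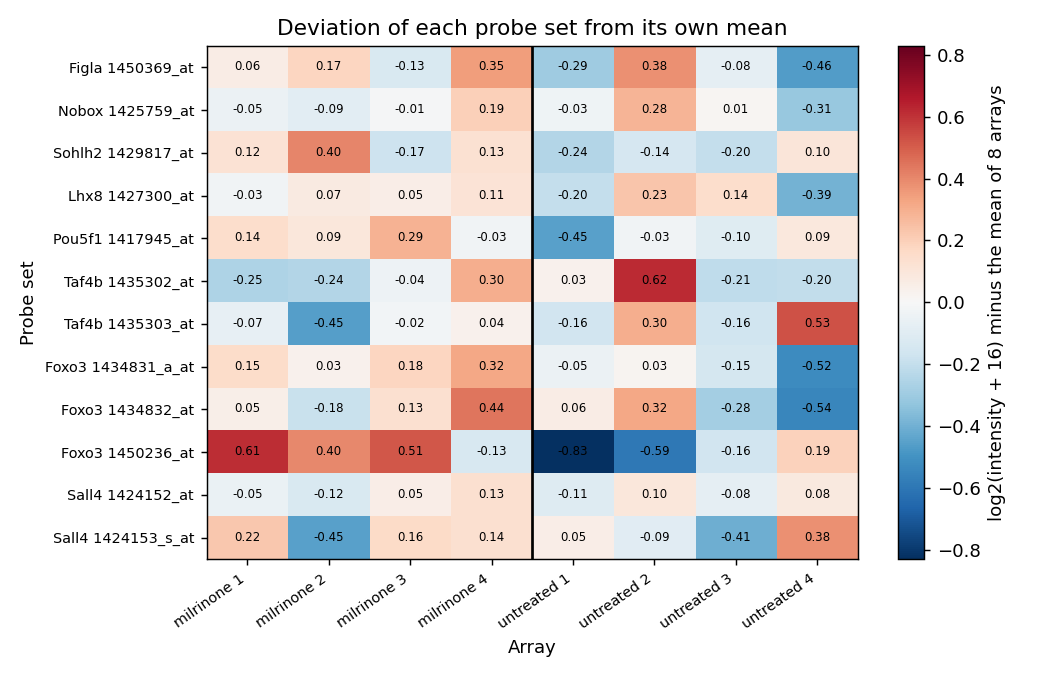
Log2(intensity + 16) of each probe set on each array minus its mean over 8 arrays, in log2 units as colour and number, milrinone arrays left of the line and untreated arrays right of it. Figla, Nobox, Lhx8 and Foxo3 1434831_a_at and 1434832_at are lowest on untreated 4, whereas Foxo3 1450236_at is lowest on untreated 1, at -0.83, and highest on milrinone 1, at 0.61.

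Likeness between patterns was measured as the root-mean-square difference of log2(intensity + 16) over the 8 arrays, after each probe set was centred on its own mean. It is not scaled by how far a probe set varies, so probe sets that vary little lie close together. Around their own means, the brightest probe sets of the members varied by 0.095 (Sall4) to 0.282 (Taf4b) on this measure, with 0.168 for Nobox. Among the 66 pairs of the 12 probe sets the difference ran from 0.107 to 0.707 with a median of 0.307. The closest pair was Nobox and Lhx8 at 0.107, followed by Figla and Lhx8 at 0.154 and by 2 probe sets of Foxo3, 1434831_a_at and 1434832_at, also at 0.154. The most distant was Taf4b 1435302_at and Foxo3 1450236_at. Against 8588 other genes, each by its brightest probe set, other genes were nearer than any member was: 163 genes lay closer to Nobox than Lhx8 did, and 118 lay closer to Figla than Lhx8 did. The genes closer than the nearest member numbered 218 for Taf4b, 237 for Lhx8 and 566 for Foxo3. They numbered 1714 for Sall4 and 2205 each for Sohlh2 and Pou5f1. The 2 most alike genes were Abcc1 (0.037) and Cpa1 (0.046) for Nobox, Msl3 (0.042) and Gnai3 (0.050) for Lhx8, and Mageh1 (0.074) and Pde12 (0.093) for Figla. They were Fam210b (0.047) and Ccdc174 (0.058) for Pou5f1, Ccdc173 (0.075) and Nutm1 (0.082) for Sohlh2, and Cdk11b (0.042) and Helb (0.048) for Sall4. For Foxo3 1434831_a_at they were Tfip11 (0.059) and Zfp35 (0.066), and for Taf4b 1435303_at Cep89 (0.105) and Igf2r (0.106). With 8 arrays and 8588 genes, close matches of this kind are found for most patterns, and they are given as a description.

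Zona pellucida genes, Gdf9, Bmp15 and others are reported to need Figla, Nobox, Sohlh1, Sohlh2, Lhx8 or Taf4b in mouse ovaries or oocytes. They were followed as the output of these factors. All 21 probe sets of the 16 such genes on the array were tested. None passed in either direction (limma), and the median log2 difference was -0.04, beside 0.06 over all tested probe sets. At an unadjusted p under 0.05, 1 of the 21 differed, in the lower direction, where 9.63% of all differed in either direction and 5.62% were higher. It was that of Fgf8, a fibroblast growth factor that the oocyte secretes, with 730, 737, 938 and 1182 on milrinone 1 to 4, and 1256, 1867, 876 and 1600 on untreated 1 to 4 (log2 difference -0.61, SE 0.24, limma adjusted p = 0.495). Untreated 3 lay among the milrinone arrays and the other untreated arrays lay above them. Astl, the protease that cleaves the zona, differed by -0.21, Dnmt1, the maintenance DNA methyltransferase, by -0.22, and Zp2 by -0.10, with adjusted p of 0.553 to 0.569 (limma). The 2 other probe sets of Dnmt1 differed by -0.037 and -0.051.

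Partners and relatives of the factors were tested through 27 probe sets of 18 genes. None passed (limma), and the median log2 difference was 0.06, beside 0.06 over all tested probe sets. At an unadjusted p under 0.05, 3 of the 27 differed, all lower, where 9.63% of all differed in either direction and 5.62% were higher. Tcf3 and Tcf12 encode E-proteins with which helix-loop-helix factors such as Figla pair. Tcf3 differed by -0.28 and Tcf12 by 0.41 through its brightest probe set, with adjusted p of 0.525 and 0.533 (limma). The other tested probe set of Tcf12 lay the other way, at -0.83 (limma adjusted p = 0.518), and was highest on untreated 1. Id3, an inhibitor that binds E-proteins without binding DNA, had 29.7, 36.6, 36.9 and 53.9 on milrinone 1 to 4, and 753, 228, 136 and 108 on untreated 1 to 4. The groups did not overlap, with milrinone lower, as for 2.74% of all tested probe sets. Untreated 1 was far the highest, as in the somatic marker sums, whose part in this difference was not tested. The log2 difference of Id3 was -2.16 (SE 0.47, limma adjusted p = 0.230). Id3 passed in 3 of 18 other settings, at -1.61 and an adjusted p of 0.0221 (limma) without untreated 1, 0.0189 with centring on ribosomal protein genes and 0.0124 with array weights. Id2, of the same family, differed by -1.01 (limma adjusted p = 0.495) and was also highest on untreated 1.

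Genes that set the activity of Foxo3, such as the Akt kinases, were tested together with the Foxo target Cdkn1b, through 31 probe sets of 13 genes. None passed (limma), and the median log2 difference was 0.06, beside 0.06 over all tested probe sets. At an unadjusted p under 0.05, 0 differed, where 9.63% of all did. The smallest p-values belonged to Xpo1, the nuclear export receptor, at 0.14, Cdkn1b, a cell cycle inhibitor known as a Foxo target, at 0.21, Akt1 at 0.13 and Akt2 at -0.15, with adjusted p of 0.601 to 0.757 (limma). Each of the 4 had a dimmer tested probe set, which lay the other way for Xpo1 (-0.025), Cdkn1b (-0.023) and Akt2 (0.16) and the same way for Akt1 (0.17).

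Pluripotency regulators known to work with Pou5f1 and Sall4 were tested through 18 probe sets of 11 genes. None passed (limma), and the median log2 difference was 0.26, beside 0.06 over all tested probe sets. At an unadjusted p under 0.05, 3 were higher and 2 lower, where 5.62% of all were higher and 9.63% differed in either direction. Tbx3, a T-box factor, had 239, 256, 317 and 234 on milrinone 1 to 4, and 163, 148, 233 and 131 on untreated 1 to 4. The groups did not overlap, although untreated 3 and milrinone 4 nearly met, and 5.06% of all tested probe sets had this order. The log2 difference was 0.61 (SE 0.19, limma adjusted p = 0.460). The Krüppel-like factor gene Klf4 differed by 0.39, fitted without the empty milrinone 4, and Prdm1, a repressor needed for germ cell specification, by 0.39. The nuclear receptor gene Nr5a2, which granulosa cells also express, differed by -0.62 through its brightest probe set, or -0.28 without untreated 1. Nr5a2 is itself 1 of the granulosa, cumulus and theca markers, so its probe sets are part of their sums. The brightest read 836 to 1193 on milrinone arrays, within sums of 2861 to 4005. On untreated arrays it read 1125 to 3223, within sums of 22689 to 99820. The adjusted p of these 3 genes ran from 0.508 to 0.554 (limma). Both probe sets that were lower at an unadjusted p under 0.05 were others of Nr5a2, at -0.60 and -1.60, with adjusted p of 0.514 and 0.456 (limma). The probe set with the larger difference, 1456521_at, had 438, 294, 392 and 423 on milrinone 1 to 4, and 4003, 834, 911 and 653 on untreated 1 to 4. The groups did not overlap, with milrinone lower, as for 2.74% of all tested probe sets. Untreated 1 was far the highest, as in the somatic marker sums, whose part in this difference was not tested.

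**Figure D5:**
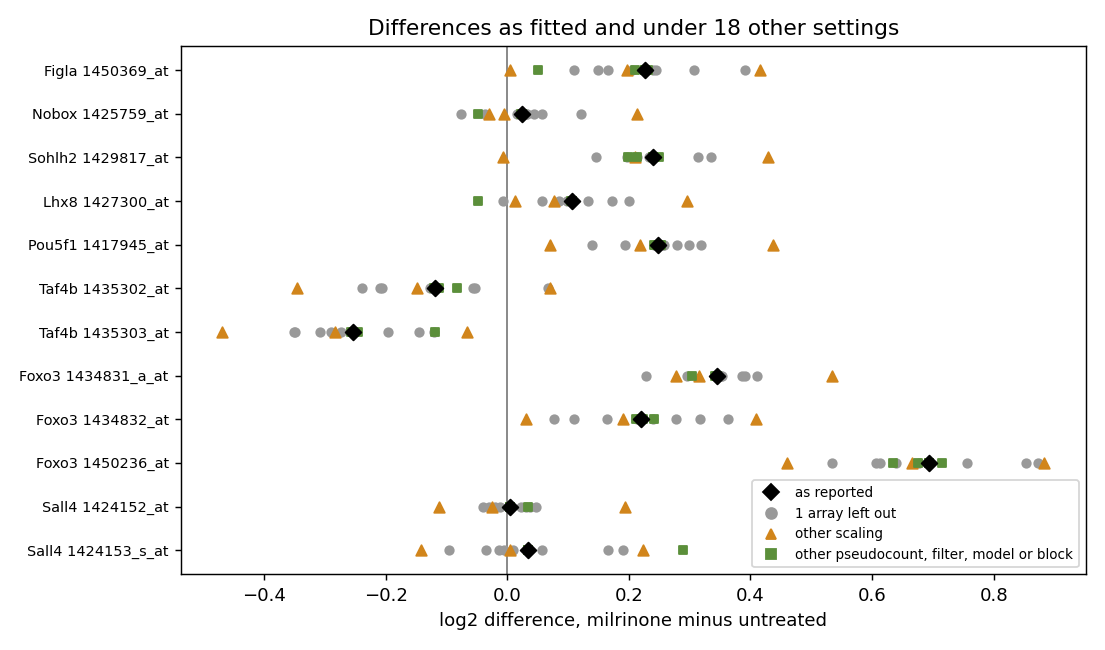
Log2 difference, milrinone minus untreated, of the 12 tested probe sets as reported (black diamonds) and in 18 other settings: 1 array left out (grey circles), other scaling (orange triangles) and another pseudocount, filter, variance model, weighting or block (green squares). All 19 values lie above 0 for Foxo3 (3 probe sets), Figla and Pou5f1 and below 0 for Taf4b 1435303_at, and the other 6 probe sets have values on both sides of 0.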

How the data were processed

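The members and gene lists were chosen with earlier results of these data known. The intensities of 45101 probe sets on 8 single-colour arrays were used as deposited. How the authors scaled them, with which software, and why some cells are empty is not given in the sources used here. Per the labels, RNA was labelled with biotin. Gene symbols are those of the platform annotation, brought up to date by Entrez identifier from RefSeq's GRCm38.p6 gene table. Control probe sets and empty cells were left out, and 1 listed gene is not reported here. The 16288 probe sets that had 3 or more values among the 4 arrays of each group were compared on log2(intensity + 16) by limma 3.58.1 under R 4.3.3. The moderated test was two-sided with an intensity trend in the variance, p-values were adjusted by Benjamini-Hochberg over all 16288, and the threshold was 0.05. The same filter of 3 listed arrays per group held when an array was left out. The test was tried on simulated data with changes larger than any difference of a member, which does not show how well smaller changes are found. Exact permutation tests were two-sided (scipy 1.17.1). Named genes were all probe sets of the members, the marker genes that passed, and the 2 genes most like each member. Of each other list, up to 4 tested genes with the smallest p were named. The number of arrays limits the precision: a log2 difference had a median standard error of 0.17. Alternatives changed the pseudocount, the listing filter, the scaling, the variance model, array weights, a replicate block and each array in turn.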

Additional observations from a re-analysis of the deposited data

Results flagged for a closer look

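Of 24 groups of 4 arrays examined, 2 for each of the 12 probe sets listed on all arrays, 1 held an array far from the other 3, where chance gives about 1 in 20, or 1.2 groups. It was Sall4 1424153_s_at, in which milrinone 2, at 1510, lay below the other milrinone arrays at 2277 to 2423, with a gap of 0.840 of the range of the group.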

How the results depend on the processing

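No member passed in any of the 18 other settings, and the smallest adjusted p of a member was 0.178 (limma), for array weights. The count of all changed probe sets was 19. It became 12 with only probe sets listed on all 8 arrays, 54 with centring on ribosomal protein genes and 106 with array weights, and it ran from 6 (without milrinone 3) to 65 (without untreated 1) when 1 array was left out, being 8 without milrinone 1 and 7 without milrinone 2. With a replicate block it was 13, of which 13 were among the 19, and 0 members passed. Same-numbered arrays did not deviate together (correlations of 0.03, -0.20, -0.02 and -0.27). These values gave no sign of pairing. With so few arrays per group, they cannot show whether samples of the same number were collected or processed together. Signs of uncalled differences turned under quantile normalization for Nobox (-0.029), Sohlh2 (-0.0066) and both probe sets of Sall4 (-0.11 and -0.14), with centring on the median for Nobox (-0.0056) and Sall4 1424152_at (-0.025), with centring on ribosomal protein genes for Taf4b 1435302_at (0.071), and with array weights for Nobox (-0.048) and Lhx8 (-0.049). The cause was not tested. With 1 array left out the differences ran from -0.076 to 0.12 for Nobox, -0.0061 to 0.20 for Lhx8, -0.24 to 0.067 for Taf4b 1435302_at, -0.039 to 0.047 for Sall4 1424152_at and -0.095 to 0.19 for Sall4 1424153_s_at. Figla, Pou5f1, the 3 probe sets of Foxo3 and Taf4b 1435303_at kept their sign in all 18 settings, and Sohlh2 in all but quantile normalization. Between 12 and 13 of the 14 member probe sets were listed per array, 12 on each milrinone array (exact permutation p = 0.429), a mean difference of -0.5 that ran from -0.67 to -0.33 with 1 array left out.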
